A study of Rattus norvegicus with 17 samples.

Results

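Collagens are the main structural proteins of the extracellular matrix, and the genes described here encode their chains. The members were all genes of the array annotation whose symbol is Col, a number, the letter a and a number, read from probe sets that name 1 gene. These were 41 genes on 58 probe sets, of 14217 genes on 20826 such probe sets, and of 44 collagen chain genes in the rat RefSeq annotation. Col4a3, Col6a4 and Col28a1 had no such probe set and were not analysed here. RNA from whole liver of 17 rats had been hybridised to Affymetrix rat expression arrays, with 1 array per rat. The ligated ghrelin group (n = 5) had its bile duct tied at week 7 and received recombinant ghrelin, a stomach peptide hormone, at 10 micrograms per kg per day. The ligated saline group (n = 6) had the same ligation and received saline. The sham group (n = 6) had an abdominal incision without ligation and received saline. All 3 groups carried a subcutaneous osmotic mini-pump and gave their livers at week 9. No ghrelin group without ligation was used here, and no source used here states strain, sex or body weight. Each array is labelled as a liver of its own.

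A collagen molecule is a triple helix of 3 chains, which can be alike or products of different genes. Fibrillar collagens form the thick bundles of scar, basement membrane collagens form sheets under epithelia and along vessels, and FACIT collagens sit on the surface of fibrils. Beaded collagens build thin beaded filaments, and the remaining types include short-chain, transmembrane and multiplexin collagens. When bile flow is blocked, bile ducts multiply and portal fibroblasts and stellate cells of the liver turn into myofibroblasts, the cells known for laying down fibrillar collagen.

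Promoter sequences of RefSeq (build GRCr8) were found for 13 of the 20 collagen genes that passed the filter described below. Each runs over 300 bases, 250 of them before the start that the entry gives. For 7 of the 13 that start was the end of the annotated gene. Sequences are shown for chains of 1 collagen type that are compared with each other below. Col4a1 and Col4a2 face away from each other on chromosome 16, with 76 bases between their starts, and that stretch is given whole (chr16:84885521-84885596, plus strand, the strand of Col4a1). The Col1a2 stretch runs from 20 bases before its first motif match to 20 bases after the last (chr4:33518316-33518412, plus strand) and ends 144 bases before the annotated start. For Col5a2 (chr9:55090152-55090251, minus strand) and Col6a1 (chr20:11905590-11905689, plus strand) the 100 bases next before the start are given. Capitals mark matches, on either strand, to the CCAAT motif (CCAAT), the GC box (GGGCGG) and the TATA motif (TATAAA).
Col4a1-Col4a2 gap: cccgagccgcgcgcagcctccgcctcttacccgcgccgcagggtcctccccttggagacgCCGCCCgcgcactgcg
Col1a2: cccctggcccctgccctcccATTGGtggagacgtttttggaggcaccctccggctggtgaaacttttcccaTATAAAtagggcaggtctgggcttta
Col5a2: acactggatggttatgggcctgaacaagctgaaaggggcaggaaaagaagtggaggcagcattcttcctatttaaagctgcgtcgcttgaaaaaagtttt
Col6a1: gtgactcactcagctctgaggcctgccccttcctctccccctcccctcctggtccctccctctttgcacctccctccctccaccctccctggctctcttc
Over the whole promoter entries, the GC box was present in 8 of the 13 collagen genes and in 33.1% of all 33469 entries. The CCAAT motif was present in 3 of the 13 and in 37.5% of all entries, and the TATA motif in 2 of the 13 and in 14.2%. The entries of Col4a1 and Col4a2 overlap and share letters. A match is a description of the letters and not a measured site.

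The deposited values were intensities that the authors summarised per probe set with GCRMA, and they are given here on the log2 scale, on which 1 unit is a doubling. A probe set was kept when it exceeded log2 3.95, the median of all deposited values, on at least 5 arrays. Of the 41 collagen genes 20 were kept, comprising 5 of 11 fibrillar, 3 of 5 basement membrane, 3 of 5 beaded, 4 of 9 FACIT and 5 of 11 other collagens. Of these, 15 exceeded the level on at least 5 sham arrays, whereas Col12a1, Col9a3, Col8a2 and Col25a1 lay below it on all sham arrays. These 4 genes were therefore kept through the ligated arrays alone and had to differ. Col8a1 exceeded the level on 3 of 6 sham arrays, so it also needed ligated arrays to be kept. The 20 genes were read out of a limma fit of 3 group means to all 15965 kept probe sets, which named 9736 genes, and a change was called at an adjusted p under 0.05 (Benjamini-Hochberg).

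**Figure D1:**
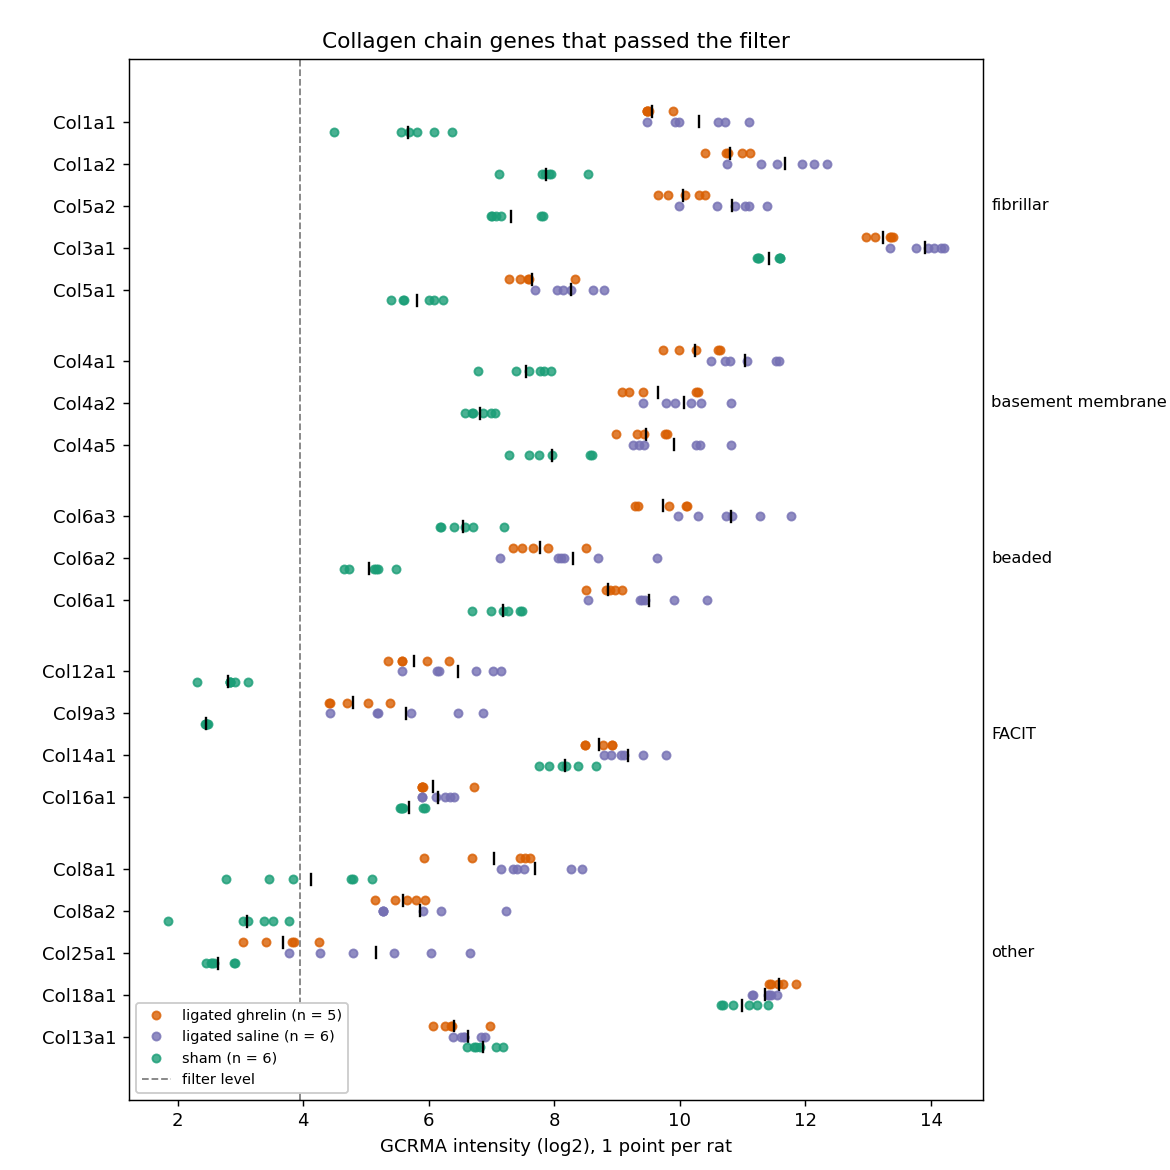
Log2 GCRMA intensity of the 20 kept collagen genes, with 1 point per rat, a tick at each group mean, and ligated ghrelin above ligated saline above sham in each row. For 17 genes every ligated rat with saline lay above every sham rat, among them the 4 kept through the ligated arrays alone. Col13a1 at the bottom shows the 3 groups overlapping.

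After 2 weeks of ligation, 19 of the 20 kept collagen genes were higher in ligated saline than in sham livers and 0 were lower. Among all 9736 genes tested, 37.5% were called higher and 27.2% lower. The groups did not overlap for 17 of the 20, and for 44.5% of all genes. The median change of the 20 was 2.97 on the log2 scale, beside 0.07 over all genes tested. These counts and this median describe genes that passed the filter, 4 of them through the ligated arrays alone. All 4 are among the 17. Of the other 16 genes 15 were higher, among them Col8a1, which also needed ligated arrays to be kept. The median of the 20 was 2.47 with the 4 genes kept through the ligated arrays alone at their lower bounds. In whole tissue, more cells of a type and more RNA per cell cannot be told apart.

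All 5 kept fibrillar collagens were higher in ligated saline livers, by 2.44 to 4.64. Col1a1 (chr10:80380458-80397461, GRCr8), the alpha 1 chain of type I collagen and the main collagen of scar, ranged from 9.47 to 11.10 (median 10.30) in ligated saline rats and from 4.49 to 6.37 (median 5.75) in sham rats. Its change was 4.64 ± 0.289 (SE), a 24.9-fold difference (limma adjusted p = 2.06e-09). No value of a ligated rat fell within the sham range. Col1a2, which encodes the partner alpha 2 chain, ranged from 10.75 to 12.34 (median 11.75) in ligated saline and from 7.11 to 8.53 (median 7.89) in sham rats, a change of 3.81 ± 0.252 (limma adjusted p = 3.65e-09). Col5a2, a chain of type V collagen, which nucleates type I fibrils, ranged from 9.99 to 11.39 (median 10.96) in ligated saline and from 6.99 to 7.83 (median 7.11) in sham rats, a change of 3.52 ± 0.224 (limma adjusted p = 2.47e-09). Both pairs of ranges were separate. Col3a1 (chr9:54866646-54902578, GRCr8), the single chain of type III collagen, which forms the fine reticular fibres of liver, ranged from 13.34 to 14.21 (median 14.00) in ligated saline and from 11.23 to 11.60 (median 11.42) in sham rats, a change of 2.50 ± 0.138 (limma adjusted p = 5.47e-10). Col5a1, the other type V chain, ranged from 7.70 to 8.79 (median 8.20) in ligated saline and from 5.39 to 6.23 (median 5.81) in sham rats, a change of 2.44 ± 0.206 (limma adjusted p = 5.11e-08). The groups were separate in these genes too.

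The 3 kept basement membrane genes all rose. Type IV collagen of most basement membranes is built from Col4a1 and Col4a2 products. Col4a1 ranged from 10.50 to 11.58 (median 10.94) in ligated saline and from 6.78 to 7.95 (median 7.69) in sham rats, a change of 3.48 ± 0.230 (limma adjusted p = 3.63e-09). Col4a2 ranged from 9.42 to 10.81 (median 10.05) in ligated saline and from 6.58 to 7.05 (median 6.78) in sham rats, a change of 3.26 ± 0.238 (limma adjusted p = 1.07e-08). Col4a5, which encodes a chain known for its mutation in hereditary kidney disease, ranged from 9.26 to 10.81 (median 9.85) in ligated saline and from 7.29 to 8.60 (median 7.86) in sham rats, a change of 1.94 ± 0.284 (limma adjusted p = 1.79e-05). In all 3 genes every ligated saline rat lay above every sham rat. Col4a6, whose gene lies next to Col4a5 on chromosome X, was not kept, with group means of 3.63 in ligated ghrelin, 3.66 in ligated saline and 3.68 in sham livers.

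The beaded-filament collagen, type VI, surrounds cells and links them to the matrix. Its 3 kept chains rose, with unequal measured changes. Col6a3 ranged from 9.97 to 11.77 (median 10.78) in ligated saline and from 6.18 to 7.19 (median 6.48) in sham rats, a change of 4.27 ± 0.269 (limma adjusted p = 2.27e-09). Its second kept probe set lay under the filter level on all sham arrays, had to differ and was at least 3.14-fold higher. Col6a2 ranged from 7.14 to 9.64 (median 8.13) in ligated saline and from 4.65 to 5.48 (median 5.14) in sham rats, a change of 3.24 ± 0.312 (limma adjusted p = 2.02e-07). Col6a1 ranged from 8.54 to 10.43 (median 9.42) in ligated saline and from 6.69 to 7.49 (median 7.22) in sham rats, a change of 2.33 ± 0.234 (limma adjusted p = 3.22e-07). The groups did not overlap for any of the 3 genes. The products of Col6a1, Col6a2 and Col6a3 assemble into 1 molecule.

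Of the 4 kept FACIT genes, Col12a1 and Col9a3 had the largest changes. Both were kept through the ligated arrays alone and had to differ. Col12a1, whose product decorates type I fibrils in tissues under tension, ranged from 5.58 to 7.15 (median 6.46) in ligated saline and from 2.32 to 3.12 (median 2.83) in sham rats. Since all sham arrays lay under the filter level, its difference is given as at least 5.72-fold. The other probe sets of Col12a1 were not kept and lay under the filter level on every array. Col9a3, a chain of type IX collagen best known from cartilage, ranged from 4.43 to 6.86 (median 5.46) in ligated saline and from 2.44 to 2.48 (median 2.46) in sham rats, at least 3.23-fold higher. Every ligated saline rat lay above every sham rat in both genes. Col14a1, whose product also binds fibrils, ranged from 8.80 to 9.77 (median 9.09) in ligated saline and from 7.75 to 8.67 (median 8.15) in sham rats, a 2.01-fold difference (limma adjusted p = 9.21e-05). Its second kept probe set changed by 0.32 ± 0.169 and was not called (limma adjusted p = 0.105). Col16a1 changed by 0.47 ± 0.146 (limma adjusted p = 0.0107), with overlapping groups, and lost its call under both other scalings tried.

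Among the remaining types, Col8a1 and Col8a2 encode the chains of type VIII collagen, a short-chain collagen of vessel walls and of the membrane under the corneal endothelium. Col8a1 ranged from 7.15 to 8.44 (median 7.46) in ligated saline and from 2.76 to 5.09 (median 4.30) in sham rats, a change of 3.57 ± 0.397 (limma adjusted p = 9.97e-07). Only 3 of its 6 sham arrays exceeded the filter level, so this size rests in part on values under it. Col8a2 ranged from 5.27 to 7.23 (median 5.59) in ligated saline and from 1.84 to 3.78 (median 3.25) in sham rats and was at least 3.75-fold higher. Both genes had separate groups. Col25a1, a transmembrane collagen known from neurons and developing muscle, ranged from 3.77 to 6.66 (median 5.13) in ligated saline and from 2.45 to 2.91 (median 2.56) in sham rats, at least 2.32-fold higher. Col18a1, the precursor of endostatin and a basement membrane proteoglycan made also by hepatocytes, changed by 0.37 ± 0.128 (limma adjusted p = 0.0192), with overlapping groups, and lost its call when array medians were set equal. Its second kept probe set changed by 0.51 ± 0.0958 without overlap (limma adjusted p = 0.000199). Col13a1, a transmembrane collagen of cell adhesion sites, was the gene not called, at -0.23 ± 0.143 (limma adjusted p = 0.171). Under quantile normalisation it was called lower, at -0.51 (limma adjusted p = 0.00622), as it was with array medians set equal, at -0.42 (limma adjusted p = 0.0200).

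**Figure D2:**
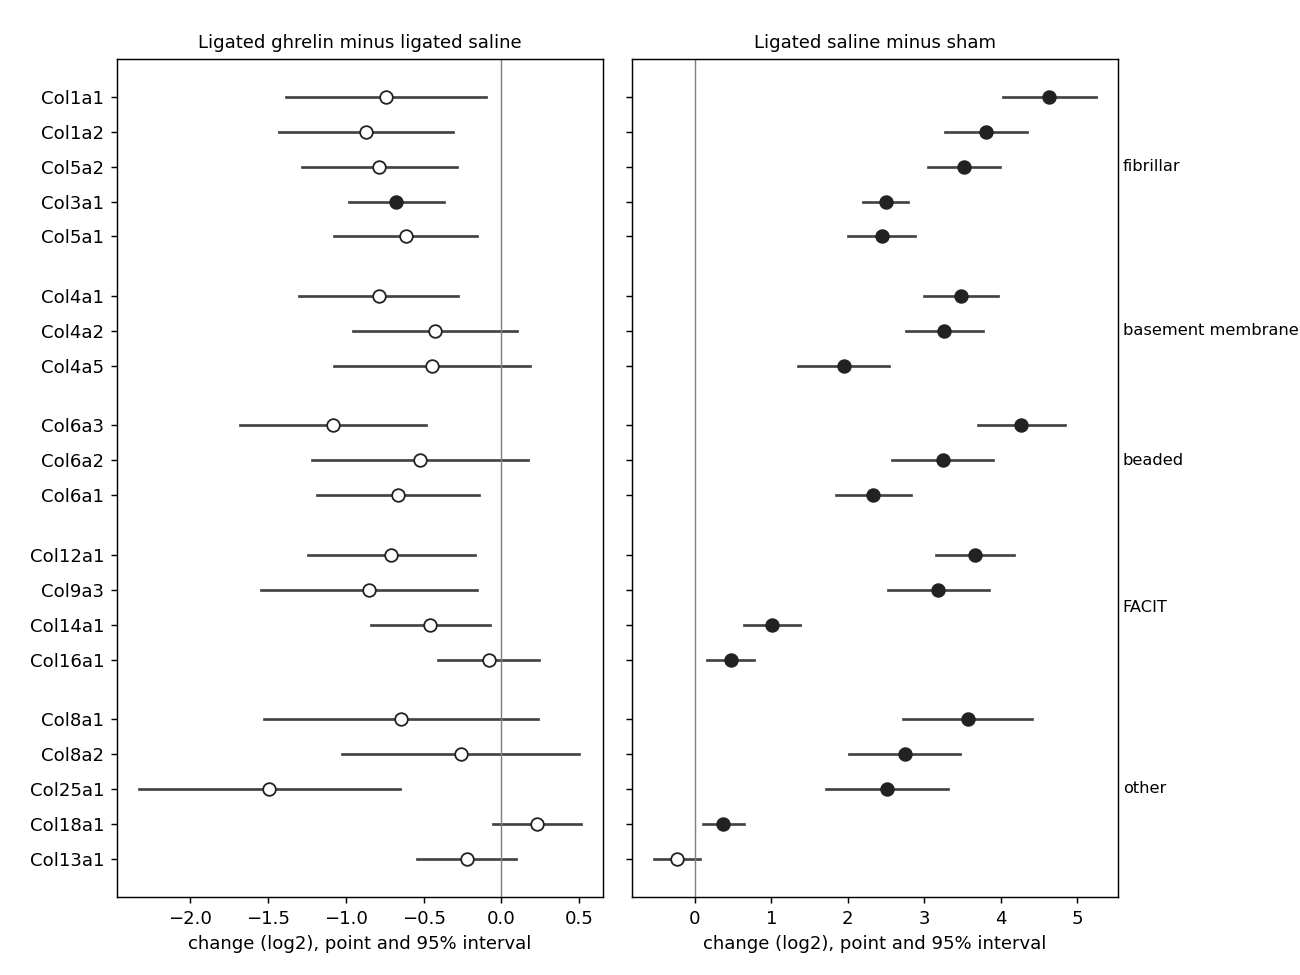
Log2 change of each kept collagen gene with its 95% interval from limma, for ligated ghrelin minus ligated saline on the left and ligated saline minus sham on the right. Filled points were called at an adjusted p under 0.05, and the 2 axes differ in scale. On the right 19 points are filled and above 0. There the fitted changes of Col12a1, Col9a3, Col8a2 and Col25a1, and in part Col8a1, rest on sham arrays under the filter level and are no bounds. On the left the filled point is Col3a1.

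Ghrelin infusion in ligated rats was compared with saline infusion in ligated rats. 1 of the 20 kept collagen genes, Col3a1, was lower and 0 were higher, while 0.585% of all genes tested were called lower and 1.76% higher. Col3a1 read 13.36, 12.96, 13.39, 13.35 and 13.11 in the 5 ligated ghrelin rats, against a range of 13.34 to 14.21 (median 14.00) in the ligated saline rats. It fell by 0.68 ± 0.145 to 0.626 times the ligated saline level (limma adjusted p = 0.0342). All 5 ghrelin rats lay below the ligated saline mean, but the groups overlapped, with ligated saline rat 4 (13.34) among the ghrelin rats. This call was lost when ligated saline rat 1, 3 or 5 or ligated ghrelin rat 1, 2 or 5 was left out, without the filter and in a fit of the 2 ligated groups alone, with adjusted p from 0.00777 to 0.0979 over the 19 alternatives.

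The count of collagen genes called in this comparison moved with single rats. It was 7 without ligated saline rat 4, 3 without ligated ghrelin rat 4, 2 without ligated saline rat 2, and 0 without ligated saline rat 1, 3 or 5 or ligated ghrelin rat 1, 2 or 5. Col25a1, which was kept through the ligated saline arrays, is counted in the 7, the 3 and the 2. Ligated saline rat 4 was the lowest of its group in 12 of the 20 genes, and ligated saline rat 1 the highest in 11. No source used here gives a reason to leave out either.

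The changes of 19 of the 20 genes lay below 0, with a median of -0.65 beside 0.01 over all genes tested. Of the 20 genes, 12 had an unadjusted p under 0.05, as did 22.0% of all genes tested. Col25a1 is in both counts and in the median, although it was kept through the ligated saline arrays, which favoured a lower value under ghrelin. The 20 genes come from the same rats and are not independent of each other. Col18a1 was the gene above 0, at 0.23 ± 0.134 (limma adjusted p = 0.342). In 13 genes, Col25a1 among them, all 5 ghrelin rats lay below the ligated saline mean. Neither this count nor that of changes below 0 was made over all genes. Single rats moved several of the changes that were not called by over 1.5 times. Without ligated saline rat 1 the change was -0.28 for Col4a2 and -0.27 for Col4a5, and without ligated saline rat 2 it was -0.26 for Col6a2. Without ligated ghrelin rat 5 it was -0.36 for Col8a1, without ghrelin rat 2 it was -0.14 for Col13a1 and -0.15 for Col8a2, and without ghrelin rat 3 it was -0.37 for Col13a1. That of Col16a1 lay between -0.25 and -0.03 with 1 rat left out.

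Of the type VI genes, Col6a3 came close to the threshold. It read 9.83, 9.29, 10.11, 10.09 and 9.34 in the ligated ghrelin rats and 9.97 to 11.77 (median 10.78) in the ligated saline rats, a change of -1.08 ± 0.282 (limma adjusted p = 0.0528). Its second kept probe set read 3.60, 3.84, 3.75, 4.78 and 4.26 in the ligated ghrelin rats, of which 2 of 5 exceeded the filter level, as did 6 of 6 ligated saline and 0 of 6 sham arrays. That probe set was kept through the high group, so no difference is given for it. Col6a3 was called under the stricter filter, both other scalings, the trend and robust fit and the mean of its probe sets, which includes that probe set. Col6a1 read 8.82, 8.88, 9.07, 8.96 and 8.51 in ligated ghrelin rats against 8.54 to 10.43 (median 9.42) in ligated saline rats, a change of -0.67 ± 0.246 (limma adjusted p = 0.136). Col6a2 read 7.65, 7.48, 8.51, 7.89 and 7.35 in ligated ghrelin rats against 7.14 to 9.64 (median 8.13) in ligated saline rats, a change of -0.52 ± 0.327 (limma adjusted p = 0.371). Neither passed, and the groups overlapped in all 3 chains.

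The other fibrillar genes did not pass. Col1a1 read 9.47, 9.47, 9.88, 9.47 and 9.51 in the ligated ghrelin rats against 9.47 to 11.10 (median 10.30) in ligated saline rats, a change of -0.74 ± 0.303 (limma adjusted p = 0.173). Its deposited value was identical to 4 decimals, 9.4711, in ligated ghrelin rats 1, 2 and 4 and ligated saline rat 4. The cause of these ties was not tested. Col1a2 read 10.77, 10.74, 11.11, 10.99 and 10.40 in ligated ghrelin rats against 10.75 to 12.34 (median 11.75) in ligated saline rats, a change of -0.87 ± 0.265 (limma adjusted p = 0.0814). Both ranges overlapped those of ligated saline rats at the low end. Col5a2 read 10.08, 9.65, 10.39, 10.30 and 9.81 in ligated ghrelin rats against 9.99 to 11.39 (median 10.96) in ligated saline rats, a change of -0.78 ± 0.235 (limma adjusted p = 0.0772). Its second probe set differed by -0.98 ± 0.239 and was called (limma adjusted p = 0.0449). Col5a1 read 7.45, 7.58, 8.33, 7.59 and 7.27 in ligated ghrelin rats against 7.70 to 8.79 (median 8.20) in ligated saline rats, a change of -0.62 ± 0.216 (limma adjusted p = 0.119), with ghrelin rat 3 alone inside the ligated saline range.

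Among basement membrane genes, Col4a1 read 10.26, 9.74, 10.61, 10.64 and 9.99 in the ligated ghrelin rats against 10.50 to 11.58 (median 10.94) in ligated saline rats, a change of -0.79 ± 0.241 (limma adjusted p = 0.0822). Col4a2 read 9.41, 9.08, 10.26, 10.29 and 9.19 in ligated ghrelin rats against 9.42 to 10.81 (median 10.05) in ligated saline rats, a change of -0.43 ± 0.250 (limma adjusted p = 0.336). In Col4a2 the ghrelin rats split, with 3 of the 5 below the lowest ligated saline rat. Col4a5 read 9.80, 9.32, 9.43, 9.76 and 8.99 in ligated ghrelin rats against 9.26 to 10.81 (median 9.85) in ligated saline rats, a change of -0.45 ± 0.298 (limma adjusted p = 0.403).

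In the FACIT group, Col12a1 read 5.97, 5.58, 6.32, 5.57 and 5.35 in ligated ghrelin rats against 5.58 to 7.15 (median 6.46) in ligated saline rats, a change of -0.71 ± 0.253 (limma adjusted p = 0.124). Col9a3 read 5.03, 4.42, 4.70, 5.38 and 4.42 in ligated ghrelin rats against 4.43 to 6.86 (median 5.46) in ligated saline rats, a change of -0.85 ± 0.328 (limma adjusted p = 0.152). In each of these genes 2 of the 5 ghrelin rats lay below the lowest ligated saline rat, and the others lay below the ligated saline median. Col14a1 read 8.91, 8.78, 8.92, 8.50 and 8.48 in ligated ghrelin rats against 8.80 to 9.77 (median 9.09) in ligated saline rats, a change of -0.46 ± 0.181 (limma adjusted p = 0.159). Col16a1 changed by -0.08 ± 0.153 (limma adjusted p = 0.794).

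Of the remaining types, Col25a1 read 3.83, 3.40, 3.85, 4.25 and 3.05 in ligated ghrelin rats against 3.77 to 6.66 (median 5.13) in ligated saline rats. Only 1 of the 5 ghrelin arrays exceeded the filter level, as did 5 of the 6 ligated saline arrays, so the gene was kept through the ligated saline arrays and no size of its difference is given. The difference was not called. Col8a1 read 7.54, 6.68, 7.46, 7.62 and 5.92 in ligated ghrelin rats against 7.15 to 8.44 (median 7.46) in ligated saline rats, a change of -0.64 ± 0.416 (limma adjusted p = 0.387). Col8a2 read 5.94, 5.14, 5.79, 5.46 and 5.65 in ligated ghrelin rats against 5.27 to 7.23 (median 5.59) in ligated saline rats, a change of -0.26 ± 0.360 (limma adjusted p = 0.713) that was 0.01 without ligated saline rat 1. Col13a1 changed by -0.22 ± 0.150 (limma adjusted p = 0.411).

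Under ghrelin most kept collagen genes were above sham levels. In ligated ghrelin against sham livers 19 of the 20 were higher and 1, Col13a1, was lower, while 35.0% of all genes tested were called higher and 21.2% lower. Of the 16 genes other than Col12a1, Col9a3, Col8a2 and Col25a1, 15 were higher, among them Col8a1, which also needed ligated arrays to be kept. For 17 of the 20 genes every ghrelin rat lay above the highest sham rat, and the groups did not overlap for 39.0% of all genes. The 17 include Col12a1, Col9a3, Col8a2 and Col25a1, which were kept through the ligated arrays alone. Col1a1 changed by 3.89 ± 0.303 (limma adjusted p = 4.05e-08), beside 4.64 in ligated saline against sham livers. Col3a1 changed by 1.82 ± 0.145 (limma adjusted p = 5.21e-08), beside 2.50. Col6a3 changed by 3.19 ± 0.282 (limma adjusted p = 1.51e-07), beside 4.27. Col14a1 changed by 0.55 (limma adjusted p = 0.0176) and Col16a1 by 0.38 (limma adjusted p = 0.0436), and both calls were lost in some of the alternatives. Col25a1 was among the 19, but all 6 sham arrays and 4 of the 5 ghrelin arrays lay under the filter level, so no fold is given. Col13a1, the gene of cell adhesion sites, fell by 0.45 ± 0.150 (limma adjusted p = 0.0179), with overlapping groups, and lost that call without ligated ghrelin rat 2. These comparisons share the sham rats, so their values are given side by side.

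Chains that assemble into 1 molecule were compared within each rat, as the log2 difference between 2 genes of a pair. The level of such a difference depends on the probes, so only its change between groups is read. That change can also differ between probe sets of 1 gene, so its size holds for the probe sets read. There were 6 pairs and 12 tests, each an exact two-sided permutation test, with Benjamini-Hochberg adjustment over the 12. After ligation 4 of the 6 pairs changed, all at the smallest p that 6 against 6 rats allow, an exact p of 0.00216 (adjusted p = 0.00649). No count over other pairs of genes was made, for ligation or for ghrelin. After ligation 37.5% of all genes were called higher and 27.2% lower, so whether 4 of 6 is particular to partner chains was not tested.

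Col1a1 minus Col1a2 ranged from -1.56 to -1.25 (median -1.36) in ligated saline and from -2.62 to -1.77 (median -2.21) in sham rats, a shift of 0.83 ± 0.121 (SE) toward Col1a1. Col5a1 minus Col5a2 ranged from -2.96 to -2.29 (median -2.57) in ligated saline and from -1.76 to -0.99 (median -1.52) in sham rats, a shift of -1.08 ± 0.148 toward Col5a2. The groups were separate in both type I and type V pairs. Col6a1 minus Col6a2 ranged from 0.80 to 1.40 (median 1.28) in ligated saline and from 1.84 to 2.53 (median 2.03) in sham rats, a shift of -0.91 ± 0.136. Col6a1 minus Col6a3 ranged from -1.87 to -0.30 (median -1.43) in ligated saline and from 0.27 to 0.92 (median 0.65) in sham rats, a shift of -1.94 ± 0.267. In both type VI pairs all 6 ligated saline rats lay below the sham range. With the mean of each gene's probe sets the Col6a1 minus Col6a3 shift was -0.76, the smallest of its alternatives. That mean includes the second Col6a3 probe set, which lay under the filter level on all sham arrays. The shift with that probe set alone was not tested.

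Col4a1 minus Col4a2, the pair that shares its 76-base gap, ranged from 0.76 to 1.21 (median 0.92) in ligated saline and from -0.09 to 1.26 (median 0.78) in sham rats. The shift of 0.22 ± 0.198 was not called (exact p = 0.338, adjusted p = 0.368). Col8a1 minus Col8a2 shifted by 0.82 ± 0.373 and was not called after adjustment (exact p = 0.0455, adjusted p = 0.0909), though it was without ligated saline rat 1 (0.98, exact test adjusted p = 0.0390). On the sham arrays Col8a2 lay under the filter level throughout and Col8a1 exceeded it on 3 of 6, so the size of that shift is uncertain.

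Under ghrelin 1 of the 6 pairs passed the threshold. Col4a1 minus Col4a2 was 0.85, 0.65, 0.35, 0.36 and 0.80 in the ligated ghrelin rats against 0.76 to 1.21 (median 0.92) in the ligated saline rats. The shift was -0.36 ± 0.120 (exact p = 0.0130, adjusted p = 0.0312), and the groups overlapped. It was lost with the mean of the probe sets, with the probe set of highest variance, and without ligated saline rat 2, 3, 4, 5 or 6 or ligated ghrelin rat 3 or 4, and its adjusted p ran from 0.0104 to 0.123 over 20 alternatives. For the other 5 pairs the adjusted p lay between 0.319 and 0.418. Of these, Col5a1 minus Col5a2 shifted by 0.17 and was called with the probe set of highest variance (0.56, exact test adjusted p = 0.0208) and with the mean of probe sets (0.37, exact test adjusted p = 0.0468).

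**Figure D3:**
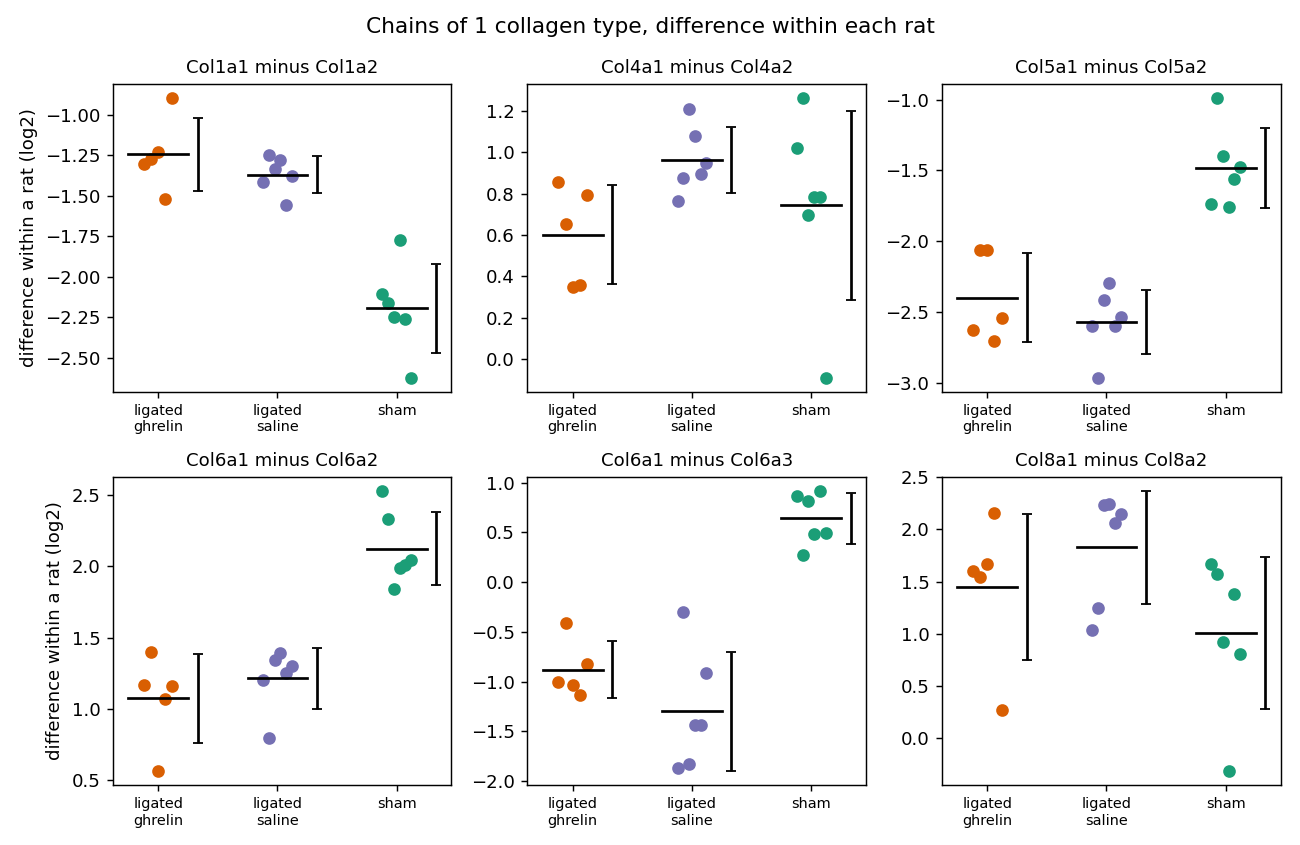
Log2 difference between the paired chain genes within each rat, with the mean as a line and the SD as a bar, for ligated ghrelin, ligated saline and sham from left to right. In the type I, type V and both type VI panels the ligated rats are separate from the sham rats. In the type IV panel they overlap.

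The 21 genes that were not kept had no measured change to compare. Their highest probe set averaged 2.00 to 3.63 in ligated ghrelin, 1.99 to 3.66 in ligated saline and 2.05 to 3.68 in sham livers, and the highest value of any array was 4.04, for Col11a1. They were Col2a1, Col5a3, Col11a1, Col11a2, Col24a1 and Col27a1 of the fibrillar type, Col4a4 and Col4a6 of basement membrane, Col6a5 and Col6a6 of the beaded type, and Col9a1, Col9a2, Col19a1, Col20a1 and Col22a1 of the FACIT type. Col7a1, Col10a1, Col15a1, Col17a1, Col23a1 and Col26a1 made up the remainder. A low intensity on this array is not evidence that a gene is silent. Without the filter 11 collagen genes more were called, all lower in ligated saline livers, but 77.1% of the 15077 probe sets that failed the filter were then called lower as well.

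**Figure D4:**
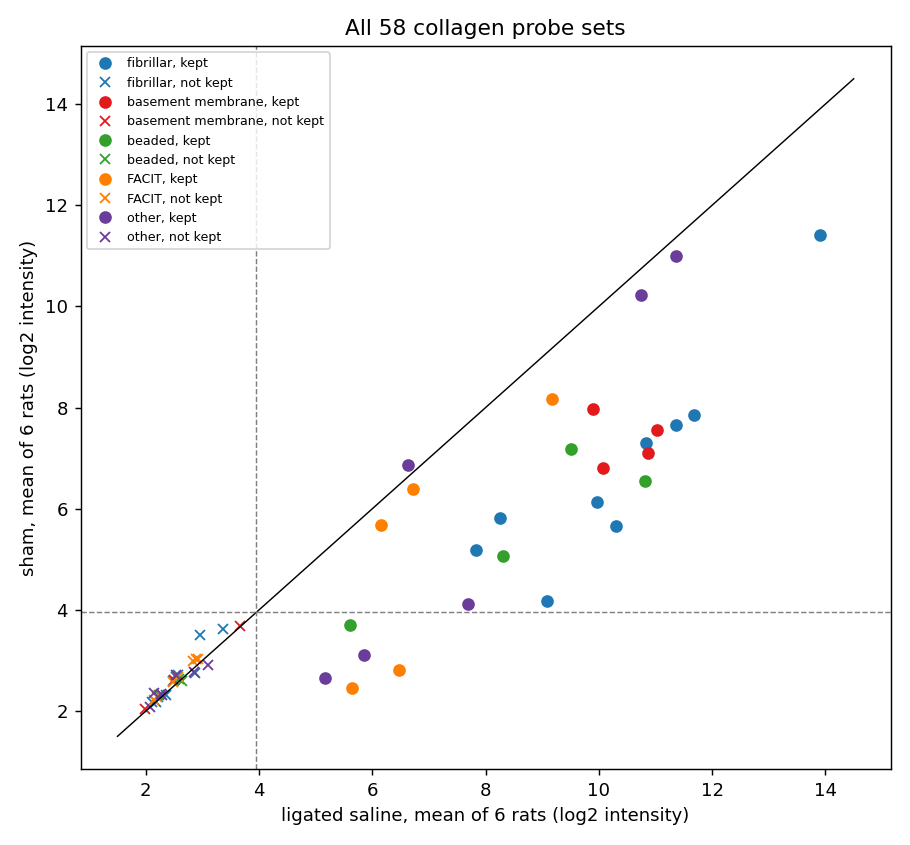
Mean log2 intensity of all 58 collagen probe sets in ligated saline (horizontal) and sham livers (vertical), each over 6 rats, coloured by class, with a line of equality and dashed lines at the filter level. Kept probe sets, drawn as circles, lie mostly below the line, and the crosses of those not kept gather near it at low intensity.

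Genes that make, trim, bind and break down collagen were read from lists, which name the 2 genes of largest change each. Serpinh1, P4ha1, P3h3, P3h4, Pepd and the genes not called are named after their values were seen. Of 14 kept genes of collagen folding and hydroxylation, 11 were higher in ligated saline than in sham livers and 0 lower, beside 37.5% higher and 27.2% lower over all genes. Plod2, Fkbp10 and P3h4 lay under the filter level on every sham array, were kept through the ligated arrays alone and had to differ. Of the other 11 genes 8 were higher. Plod2, the lysyl hydroxylase of the collagen telopeptides, ranged from 7.37 to 9.11 (median 8.32) in ligated saline and from 3.24 to 3.77 (median 3.72) in sham rats, at least 19.98-fold higher. Fkbp10, a prolyl isomerase that assists collagen folding, was at least 3.77-fold higher. Serpinh1, the collagen chaperone HSP47, changed by 3.14 ± 0.217 (limma adjusted p = 5.99e-09). Of the genes that act in prolyl hydroxylation, P4ha1 (0.88, limma adjusted p = 0.00251) and P3h3 (1.49, limma adjusted p = 3.64e-05) were higher, and P4hb, P4ha2 and P3h1 were not called. The median of the 14 was 0.59, or 0.49 with Plod2, Fkbp10 and P3h4 at their bounds, beside 0.07 over all genes tested.

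Of 5 kept genes of procollagen trimming and cross-linking 4 were higher and 0 lower in ligated saline livers. Beside each count of this paragraph stand 37.5% higher and 27.2% lower over all genes. Loxl1 ranged from 9.31 to 10.93 in ligated saline and from 2.73 to 4.24 in sham rats, with 5 of 6 sham arrays under the filter level, so no size is given. Lox changed by 3.25 ± 0.466 (limma adjusted p = 1.49e-05). Both are oxidases that start the cross-links of collagen and elastin. Of 4 kept collagen receptors 3 were higher. One was Ddr1, a receptor tyrosine kinase that lay under the filter level on every sham array and had to differ (at least 3.38-fold), and without it 2 of 3 were higher. Another was Itgb1, the integrin beta 1 chain (1.51 ± 0.110, limma adjusted p = 1.04e-08). Of 5 kept genes of collagen breakdown 3 were higher and 1 lower. Mmp2, a gelatinase, changed by 3.95 ± 0.241 (limma adjusted p = 1.63e-09), and Ctsk, a collagen-cutting cathepsin, by 1.99 ± 0.218 (limma adjusted p = 8.20e-07). Pepd, the peptidase that splits the last proline-containing dipeptides of collagen, fell by 0.27 ± 0.085 (limma adjusted p = 0.0106).

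In ligated ghrelin against ligated saline livers, 1 of these 28 kept genes passed the test, beside 0.585% called lower and 1.76% called higher over all genes. Plod2 read 7.00, 6.88, 7.34, 7.40 and 7.09 in ligated ghrelin rats against 7.37 to 9.11 (median 8.32) in ligated saline rats, a change of -1.13 ± 0.249 (limma adjusted p = 0.0358). The ghrelin rats lay below all ligated saline rats except rat 4. Mmp2 differed by -0.96 ± 0.253 (limma adjusted p = 0.0535), Ctsk by -0.83 ± 0.228 (limma adjusted p = 0.0596) and Lox by -1.33 ± 0.489 (limma adjusted p = 0.133). Serpinh1, at -0.17 ± 0.228, was not called (limma adjusted p = 0.703).

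**Figure D5:**
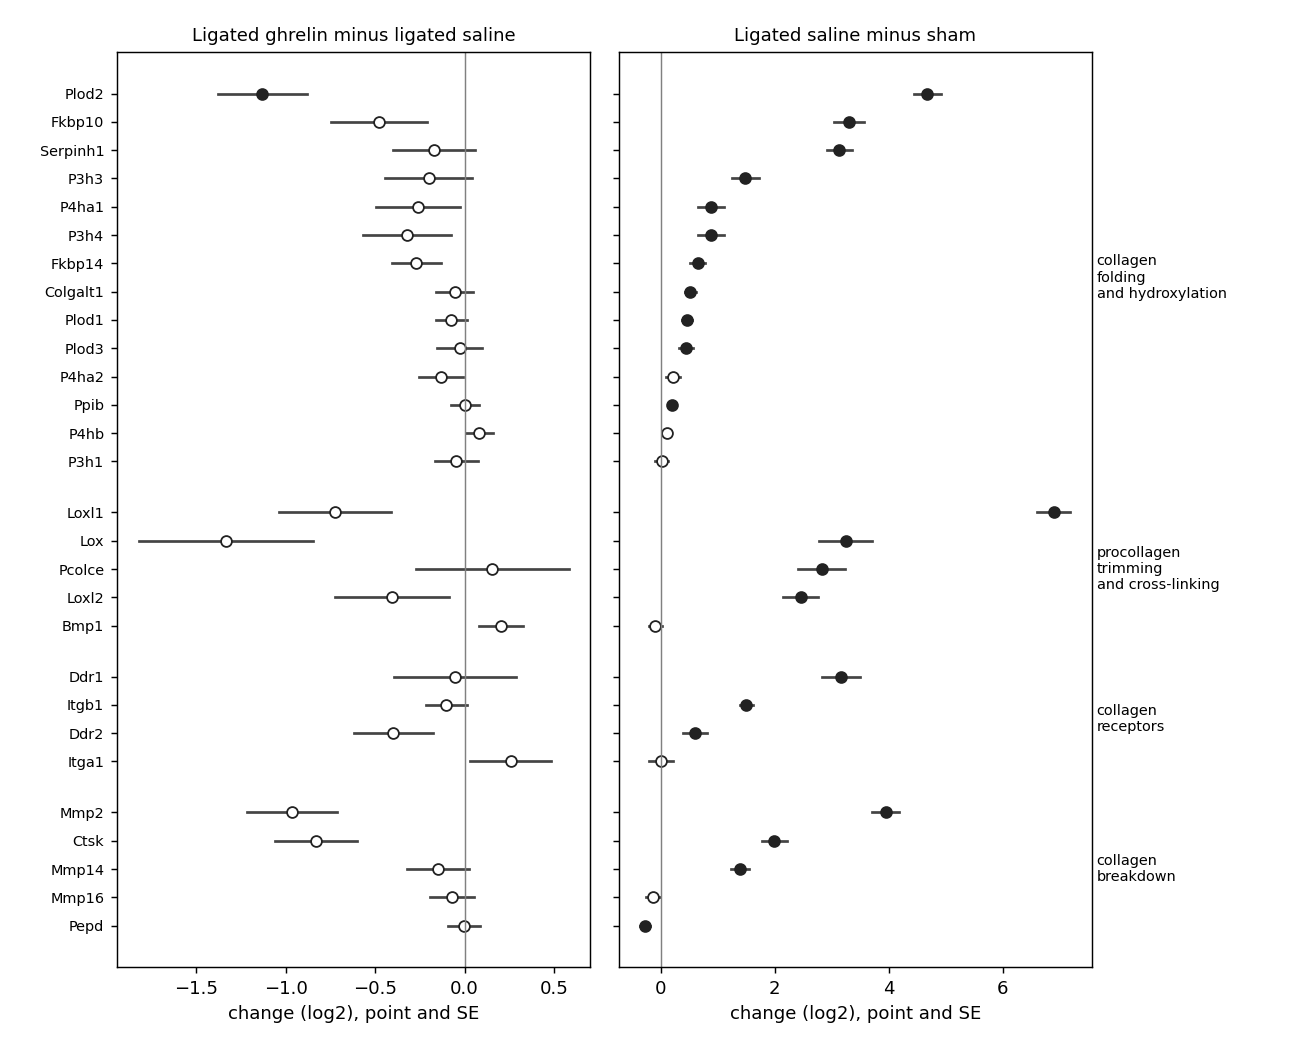
Log2 change and SE of kept genes of collagen folding, cross-linking, binding and breakdown, for ligated ghrelin minus ligated saline on the left and ligated saline minus sham on the right, with filled points called at an adjusted p under 0.05 and axes of different scale. On the right the fitted changes of Plod2, Fkbp10, P3h4 and Ddr1, and in large part Loxl1, rest on sham arrays under the filter level and are no bounds. On the left the filled point is Plod2.

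Markers of several cell types moved with ligation, where 37.5% of all genes were called higher and 27.2% lower. Of 11 kept myofibroblast and stellate cell markers 10 were higher and 1, Lrat, lower in ligated saline livers. Thy1 lay under the filter level on every sham array and had to differ, and of the other 10 markers 9 were higher. The summed level of all 11 was 12.83 to 13.38 in ligated ghrelin, 12.97 to 14.10 in ligated saline and 10.38 to 11.09 in sham rats. Each summed level here is the log2 of added intensities and so follows the strongest genes. Among these 11 that was Vim in every ligated rat. All 8 kept bile duct markers and all 7 kept macrophage markers were higher. The summed bile duct level was 12.80 to 13.50 in ligated ghrelin, 12.52 to 14.17 in ligated saline and 8.57 to 9.50 in sham rats, and 2 of the 8, Cftr and Sctr, lay under the filter level on every sham array and had to differ. All 6 others were higher. The summed macrophage level was 13.47 to 14.19 in ligated ghrelin, 13.98 to 14.28 in ligated saline and 12.28 to 13.29 in sham rats. Of 7 kept endothelial markers 3 were higher, near the share of all genes, and 1, Kdr, lower. The endothelial sum overlapped, at 11.83 to 12.43 in ligated ghrelin, 12.03 to 12.43 in ligated saline and 12.13 to 12.51 in sham rats. Of 8 kept hepatocyte markers 0 were higher and 2, Ttr and Hnf4a, lower, and the sum was 17.64 to 17.75 in ligated ghrelin, 17.53 to 17.75 in ligated saline and 17.67 to 17.80 in sham rats. Alb, the albumin gene that defines hepatocytes, read 15.79 to 15.91 in ligated ghrelin, 15.80 to 15.88 in ligated saline and 15.81 to 15.92 in sham rats. Its 15.92 was the highest deposited value of all, so a fall of Alb could be hidden at the top of the scale, which was not tested. Alb was also the largest entry in the hepatocyte sum. The part of these cell types in the collagen changes was not tested. In ligated ghrelin against ligated saline livers, 1 of these 41 kept markers was called, where 0.585% of all genes were lower and 1.76% higher. It was Rgs5 of pericytes and stellate cells, at -0.70 ± 0.158 (limma adjusted p = 0.0389).

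Arrays of 1 group correlated with each other at 0.988 to 0.995 over all probe sets. The median log2 intensity of an array was 3.95 to 4.04 in ligated ghrelin, 4.01 to 4.13 in ligated saline and 3.83 to 3.88 in sham rats. Collagen values spread more among ligated saline than among sham rats for 16 of the 20 genes, with a median SD of 0.356 in ligated ghrelin, 0.561 in ligated saline and 0.320 in sham rats. The 16 include Col12a1, Col9a3, Col8a2 and Col25a1, which lay under the filter level on all sham arrays. For Col9a3 the SD was 0.901 in ligated saline and 0.0132 in sham rats. This count was not made over all genes. Ligated ghrelin rat 3 was the highest of its group in 13 of the 20 genes, and rats 2 and 5 were the lowest in 9 each. Rat 3 also had the highest 3-prime minus 5-prime difference of its group for beta-actin (2.62, in a group range of 1.88 to 2.62) and GAPDH (0.620, in a range of 0.104 to 0.620), which rises as RNA degrades. That difference for beta-actin was 1.75 to 2.05 in ligated saline and 1.86 to 2.37 in sham rats, and for GAPDH 0.0373 to 0.195 in ligated saline and 0.0220 to 0.271 in sham rats. Its part in the collagen values was not tested. Without ligated ghrelin rat 3 the number of collagen genes called stayed at 1 under ghrelin against saline.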

How the data were processed

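Liver RNA of 17 rats was measured on Affymetrix rat expression arrays, 1 per rat. The authors deposited intensity values per probe set made with GCRMA, per the submitters' processing notes (no version or setting is stated there). These intensities were linear, with 0 missing values, and were converted to log2 without a pseudocount. Of 31099 probe sets, 57 controls were left out, and 15965 of 31042 were kept, with an intensity above the median of all values (15.5) on at least 5 arrays. Gene symbols came from the platform annotation, checked against RefSeq (GRCr8), and 0 collagen symbols changed. A gene was read from its kept probe set of highest mean.

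A model of 3 group means was run in limma 3.58.1 under R 4.3.3 (eBayes, Benjamini-Hochberg over kept probe sets), which was tested on simulated data. A change ± SE is on the log2 scale, and a 95% interval comes from the same fit. Where all arrays of a group lay under the filter level, the fold is a lower bound, computed against that level. Exact permutation tests were also run in R. Ranges and figures were made with Python 3.11.15, numpy 2.4.6, pandas 2.3.3 and matplotlib 3.10.9. The rule for values per rat named the 3 genes of largest change per class after ligation, genes called under ghrelin and both chains of called pairs. All other kept genes were named with their change, and pathway lists by their 2 genes of largest change. The members, gene lists and tests were chosen with earlier results of these data known. Each array is a separate rat, and the number of arrays limits the precision. Rats were numbered within a group in order of deposit. No date or batch was used, since none was found in the labels. Alternatives were other filters, scalings, variance models and probe set rules, and leaving out each rat.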

Additional observations from a re-analysis of the deposited data

Results flagged for a closer look

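In each of the 60 sets of 1 gene and 1 group, the highest and the lowest rat were set against the rest with Dixon's test, and 3 stood apart, where chance alone gives about 1 in 20. Col1a1 read 9.8847 in ligated ghrelin rat 3, while the other 4 rats of that group lay between 9.4711 and 9.5092. Col16a1 read 6.7235 in the same rat, while the other 4 lay between 5.9001 and 5.9103. In both genes several of the other ligated arrays held the same deposited value to 4 decimals (9.4711 in 4 arrays for Col1a1 and 5.9005 in 3 arrays for Col16a1), which narrows the range the rat is set against. Col12a1 read 2.3164 in sham rat 1, below the next lowest sham rat at 2.83, and all sham values of that gene lay under the filter level.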

How the results depend on the processing

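For ligated saline against sham the count of collagen genes called was 19, also 19 in each fit without 1 rat, 30 of 41 without the filter (19 higher, 11 lower) and 13 of 13 under a stricter filter. For ligated ghrelin against sham it was 20 (18 to 20 without 1 rat), 31 without the filter and 13 under the stricter filter, which tests fewer genes. For ligated ghrelin against ligated saline it was 1 (0 to 7 without 1 rat), 0 without the filter and in a fit of the 2 ligated groups alone, 2 under the stricter filter, quantile normalisation, the trend and robust fit and the probe set of highest variance, 3 with array medians set equal and 4 with the mean of probe sets. Col25a1, kept through the ligated saline arrays, is among the 3 and the 4 of that comparison. The number of partner chain tests called was 5 (4 to 6 without 1 rat). No called value changed sign in any alternative run, and of the values not called 1 did, Col8a2 in ligated ghrelin against ligated saline, from -0.26 to 0.01 without ligated saline rat 1. Where a cause is not named, the cause was not tested. The median change of all genes in ligated saline against sham was 0.07 as deposited, -0.05 after quantile normalisation and -0.12 with array medians set equal, so small changes such as those of Col13a1, Col16a1 and Col18a1 depend on the scaling. No paired analysis was possible because the rats of different groups share no number in the labels. Signal near the filter level limits what can be said of Col25a1, Col9a3 and the 21 genes not kept.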

Other observations

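Neighbouring collagen genes are given side by side for ligated saline against sham livers. Col3a1 and Col5a2 lie next to each other on chromosome 9, 38189 bases apart with 0 RefSeq genes between them (GRCr8), and changed by 2.50 and 3.52. Col6a1 and Col6a2 lie on chromosome 20, 97070 bases apart with 2 genes between them, and changed by 2.33 and 3.24. Col4a1 and Col4a2, with starts 76 bases apart, changed by 3.48 and 3.26, and their shift within rats was not called (exact p = 0.338). Deposited values identical to 4 decimals on 2 or more arrays occurred in 3 of the 20 collagen genes, Col1a1, Col12a1 and Col16a1, in the probe set each gene was read from, and in the second kept probe set of Col5a1 (7.2925 in ligated ghrelin rats 1 and 2).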
